A study of Mus musculus with 36 samples.

Results

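Circulating monocytes of Apoe ko mice were compared between advanced atherosclerosis, after 6 months on a high cholesterol diet, and early atherosclerosis, after 1 month on that diet. The comparison rests on 8 of the 36 libraries of the series, 4 of each stage, chosen by their labels. All of these mice lack apolipoprotein E, the ligand with which lipoprotein remnants are taken up by the liver, and no group used here has an intact Apoe gene. A further 4 monocyte libraries from Apoe ko mice on chow, the baseline group, entered the fit and are given beside the results. The labels give the source of the monocytes as blood and spleen, so a library may hold cells of both. Neither the age of the mice nor whether each library came from its own animals was given: time on diet and age cannot be told apart, and p-values measure the spread between these libraries, which may be technical. RNA of cells sorted by flow cytometry was sequenced, and counts of reads per gene are given here as counts per M (CPM) of the library's total.

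Monocytes are made in the bone marrow from granulocyte-monocyte progenitors and leave it through the chemokine receptor Ccr2. Classical monocytes carry Ly6c2 and enter inflamed tissue, while nonclassical monocytes, which depend on the nuclear receptor Nr4a1 and carry Cx3cr1, patrol the vessel wall. In Apoe-deficient mice on a cholesterol-rich diet, classical monocytes accumulate in blood and spleen and supply the macrophages of the arterial plaque.

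The monocyte-expressed genes Csf1r and Itgam were abundant in all 8 libraries. Csf1r, the receptor for macrophage colony-stimulating factor, was at 1620.3 ± 267 CPM at the early stage and 1602 ± 234 CPM at the advanced stage, where values after ± are SDs over 4 libraries. Itgam, the CD11b chain, was at 809 ± 87.8 and 902 ± 76.3 CPM. Reads on Apoe remained, at 42.8, 12.3, 13.2 and 8.41 CPM in early libraries 1 to 4 and 2.65, 9.55, 10.1 and 10.9 CPM in advanced libraries 1 to 4. Which exons these reads fall on was not known, so they do not check the knockout. Xist, expressed from an inactive X chromosome, ran from 1364 to 2011 CPM and from 1535 to 1928 CPM. Library totals were 1.99 ± 0.289 M counts at the early stage and 1.38 ± 0.317 M at the advanced stage (exact permutation test, two-sided, p = 0.0571, where 4 libraries against 4 can go no lower than 0.0286). The baseline monocyte libraries were deeper, at 9.11 to 14.8 M. The ribosomal RNA precursor Rn45s took 13.1 ± 0.676% and 11.4 ± 3.34% of the counts (exact p = 0.514), with advanced library 2 lowest at 6.50%. Along the first principal component of the 8 libraries, which held 34.7% of the variance, the early libraries lay between -46.5 and -5.22 and the advanced ones between 19.5 and 28.7. Advanced libraries 2 and 3 stood apart from 1 and 4 on the second component, at 23.95 and 26.2 against -21.3 and -17.4.

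Of 9465 genes tested with edgeR's quasi-likelihood test, 194 passed a Benjamini-Hochberg adjusted p of 0.05, which is 2.05% of them. At the advanced stage 64 genes (0.676%) were higher and 130 (1.37%) were lower. The falls were larger: 78 of the fallen genes and 21 of the risen genes changed more than 2-fold, and 52 and 9 changed more than 4-fold. The median size of the log2 change was 1.44 among the fallen genes and 0.63 among the risen ones. In 189 of the 194 genes every advanced library lay on 1 side of every early library, which held for 894 of all tested genes (9.45%), 3.76% with the advanced libraries above and 5.68% with them below. The count moved when single libraries were left out. It was 147, 34, 321 and 128 without early library 1, 2, 3 or 4. Without advanced library 1, 2, 3 or 4 it was 52, 69, 91 and 103. Fewer libraries also mean less power, and its part in these counts was not tested. Without advanced libraries 2 and 3, an alternative chosen after seeing the data that leaves 2 advanced libraries, 4 genes passed.

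All 11 T cell markers tested were lower at the advanced stage. Their median log2 change was -3.50, against a median of -0.0024 over all tested genes, and their summed level was 102 to 491 CPM in the early libraries and 22.5 to 32.4 CPM in the advanced ones. At baseline the same sum was 52.2 to 139 CPM. The list was written with earlier results of these data known, so its count describes these libraries. Cd3g, a chain of the CD3 complex that signals for the T cell receptor, was at 19.6, 35.9, 5.04 and 25.2 CPM in early libraries 1 to 4 and 2.65, 0, 0.593 and 0.726 CPM in advanced libraries 1 to 4. Every early library was above every advanced one, and the log2 change was -4.26 (SE 0.68, adjusted p = 0.00838) in edgeR. Lef1, with Tcf7 a transcription factor of naive T cells, was at 19.6, 45.8, 9.44 and 50.9 CPM and fell to 0.662, 4.24, 0.593 and 0.726 CPM, a log2 change of -4.57 (SE 0.63, adjusted p = 0.00696). Tcf7 itself fell from 37.1 ± 18.1 to 3.73 ± 1.87 CPM. The coreceptor chains of cytotoxic T cells fell as well, Cd8a by 3.61 and Cd8b1 by 3.50 on the log2 scale. Cd4, the coreceptor of helper T cells, was at 23.7, 66.6, 8.82 and 14.6 CPM and then 2.65, 0, 1.19 and 3.63 CPM, with a log2 change of -3.80 (SE 0.85, adjusted p = 0.0312). Lck, the kinase that starts signalling from the T cell receptor, fell by 3.94 on the log2 scale, and the remaining markers had log2 changes of -3.04 (Cd3d), -3.45 (Cd3e), -2.15 (Cd2) and -2.32 (Cd28). In bulk RNA, fewer cells of a type and less RNA per cell cannot be told apart.

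The early libraries did not hold these transcripts evenly. Early library 4 was highest for Lef1 (50.9 CPM, against 45.8 CPM in early library 2) and Cd3d (18.1 against 17.5 CPM). Early library 2 was highest for the other T cell markers tested, and early library 3 was lowest for all of them. The receptors that guide lymphocytes through lymphoid organs fell with the T cell genes. S1pr1, the sphingosine-1-phosphate receptor used to leave lymphoid organs, was at 24.2, 55.7, 8.82 and 21.2 CPM and then 2.65, 3.18, 1.19 and 1.45 CPM, a log2 change of -3.74 (SE 0.56, adjusted p = 0.00696). Ccr7, the receptor used to enter lymph nodes and also carried by dendritic cells, was at 9.07, 13.2, 4.41 and 14.2 CPM and then 0.662, 1.06, 1.19 and 0 CPM, a log2 change of -3.76 (SE 0.60, adjusted p = 0.00838). These were the members called among 24 tested genes for chemokine receptors and adhesion molecules. Ccr2 was not called, at 1171 ± 259.9 and 1513 ± 469 CPM (edgeR adjusted p = 0.426). With early library 2 left out, 5 of the 11 T cell markers still passed (Lef1, Tcf7, Cd3g, Cd8a and Cd8b1). In that fit Cd4 had a log2 change of -2.95 (edgeR adjusted p = 0.0988) and Lck one of -3.10 (adjusted p = 0.0668). Leaving out advanced library 1, 2, 3 or 4 left 6, 8, 6 and 8 of the 11 called. With limma-voom 6 of the 11 passed. Without advanced libraries 2 and 3, none of the 11 passed, and their median was -3.55.

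Of 8 natural killer markers tested, 3 fell (Gzma, Ccl5 and Klrk1), and their early level was far highest in 1 library. Gzma, a granule protease of killer cells, was at 32.2, 452, 6.93 and 28.3 CPM in the early libraries and 1.32, 6.36, 1.19 and 0.726 CPM in the advanced ones, a log2 change of -5.95 (SE 1.41, adjusted p = 0.0403) in edgeR. Ccl5, a chemokine of natural killer and memory T cells, was at 45.3, 335, 13.9 and 38.96 CPM and then 3.97, 9.55, 4.75 and 7.26 CPM, a log2 change of -4.12 (SE 0.91, adjusted p = 0.0309). Early library 2 was far above the others for both genes. The same library led for Il2rb, a receptor chain for interleukins 2 and 15 (early 32.2, 192, 13.2 and 38.1 CPM, advanced 3.97, 12.7, 2.37 and 4.36 CPM), and for the killer cell receptors Klrk1 and Klri2. The median log2 change of the 8 tested markers was -4.09. The 12 genes of the list, tested or not, summed to 109 to 2052 CPM at the early stage, 21.8 to 77.4 CPM at the advanced stage and 17.5 to 68.5 CPM at baseline. None of the 8 passed without early library 2, and the log2 changes were -3.42 for Gzma (adjusted p = 0.133) and -2.41 for Ccl5 (adjusted p = 0.0532). Leaving out any 1 advanced library also ended these 3 calls, as did limma-voom, while DESeq2 called 6 of the 8.

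Of 5 tested B cell markers, 2 fell. Cd79b, a signalling chain of the B cell receptor, was at 29.2, 33.1, 13.9 and 23.02 CPM and then 10.6, 6.36, 4.75 and 3.63 CPM, a log2 change of -1.94 (SE 0.34, adjusted p = 0.0127). Ms4a1, which encodes CD20, was at 50.9, 56.7, 10.1 and 37.6 CPM and then 2.65, 4.24, 2.97 and 5.08 CPM, a log2 change of -3.38 (SE 0.71, adjusted p = 0.0239). Jchain, which joins the chains of secreted antibody, overlapped between the stages at 74.1, 324, 5.04 and 67.3 CPM in the early and 9.26, 22.3, 35.6 and 8.72 CPM in the advanced libraries and was not called. Of the plasmacytoid dendritic cell markers, 0 of 4 were called, although all 4 had a negative log2 change, with a median of -3.36. For 3 of them every advanced library lay below every early one. The 8 genes of the list summed to 171 to 542 CPM at the early stage, 109 to 179 CPM at the advanced stage and 106 to 242 CPM at baseline. Siglech lay at 36.3, 176, 21.4 and 38.96 CPM in the early libraries and at 7.28, 2.12, 7.71 and 2.91 CPM in the advanced ones without overlap (log2 change -3.63, SE 0.97, adjusted p = 0.0642). Without early library 2 the log2 change of Ms4a1 was -3.14 (edgeR adjusted p = 0.0797), no longer past the threshold, as was the case without early library 1 or any 1 advanced library (adjusted p up to 0.0797). Limma-voom called 1 of the 5. Cd79b passed in each fit that left out 1 library.

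**Figure D1:**
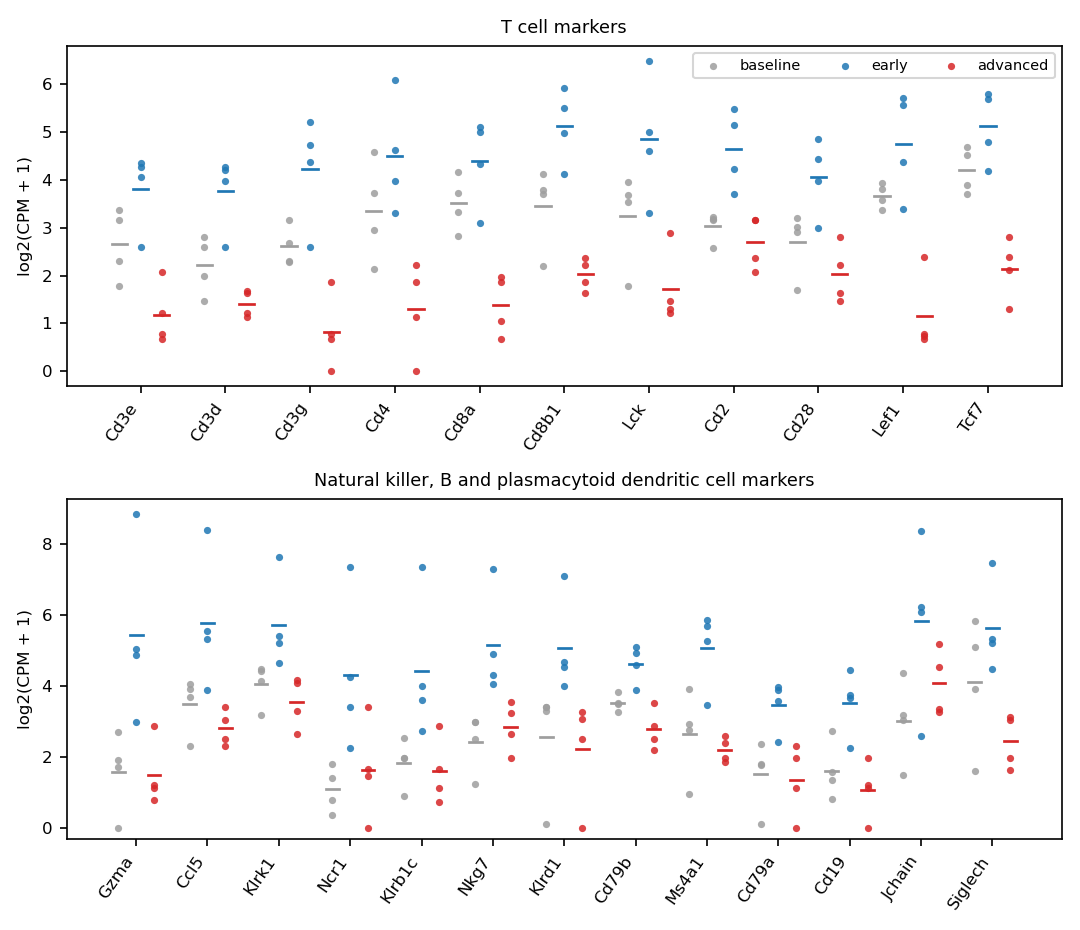
Points are libraries of monocytes at baseline (grey), early (blue) and advanced (red) stages, bars are their means, and the y axis is log2(CPM + 1). For Cd3g, Cd8a and Ms4a1 the advanced libraries lie below all early ones, and 1 early library is far above the rest for Gzma, Ccl5 and Klrk1.

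The largest rises were in eosinophil genes. Prg2, the major basic protein of eosinophil granules, was at 0, 0, 0 and 1.77 CPM in early libraries 1 to 4 and 35.1, 121, 14.2 and 10.2 CPM in advanced libraries 1 to 4, a log2 change of 6.36 (SE 1.53, adjusted p = 0.0430) in edgeR. Ear1, a ribonuclease of eosinophils that belongs to a family of near-identical genes, had 3 counts over all early libraries and 193 over all advanced ones. Its ratio per M was 92.7, with a counting interval from 31.3 to 453. Epx, the eosinophil peroxidase, had no count in any early library and 127 in the advanced ones, at least 61.0-fold higher when the early group is set to 3 counts. It missed the threshold of the test (adjusted p = 0.0559). Ccr3, the eotaxin receptor, was at 9.07, 5.20, 5.04 and 7.97 CPM and then 54.3, 177, 38.6 and 39.2 CPM, a log2 change of 3.43 (SE 0.72, adjusted p = 0.0247). Alox15, a lipoxygenase of eosinophils and resident macrophages, went from 0, 0, 0 and 3.10 to 17.9, 59.4, 12.5 and 7.26 CPM, a log2 change of 4.70 (SE 1.16, adjusted p = 0.0488). Every advanced library was above every early library for these 5 genes, and advanced library 2 was the highest for each of them. Of 4 eosinophil markers tested, 2 were called (Prg2 and Ccr3), and the 5 markers of the list summed to 6.30 to 11.1 CPM at the early stage, 66.1 to 434 CPM at the advanced stage and 3.30 to 60.04 CPM at baseline. Limma-voom called neither of these and 1 of the other 2 tested, and DESeq2 called all 4. Leaving out any 1 library ended the calls of Prg2 and Alox15 (adjusted p up to 0.135 and 0.145), and those of Ear1 and Ccr3 were lost without early library 1, 2 or 4 or advanced library 1 or 2 (adjusted p up to 0.0928 and 0.0930). Without advanced library 2 the log2 changes of Ear1 and Ccr3 were 5.84 and 2.74.

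Neutrophil genes were present in all 8 libraries and varied most among the advanced ones. Retnlg, a resistin-like protein of neutrophils, was at 13.6, 11.8, 0.630 and 14.2 CPM and then 145, 456, 128 and 114 CPM, a log2 change of 4.29 (SE 0.84, adjusted p = 0.0190) in edgeR. Of 13 tested neutrophil markers, this 1 passed, and none did with limma-voom. Its adjusted p without early library 2 was 0.0722 and without advanced library 2 it was 0.0557. Retnlg was highest in advanced library 2, as the eosinophil genes were, and at baseline it was at 71.6, 25.2, 28.8 and 1.17 CPM. Which cells carried its reads was not tested. S100a8, a calcium-binding alarmin of neutrophils and classical monocytes, was at 4341, 3211, 1089 and 2575 CPM in the early libraries and 2083, 4099, 11269 and 1390.2 CPM in the advanced ones, and was not called (log2 change 0.79, SE 0.61, adjusted p = 0.519). Advanced library 3 was highest for S100a8, for its partner S100a9 and for the granule genes Ngp, Ltf and Camp. The 14 listed neutrophil genes in the count tables summed to 4410.1 to 15267 CPM at the early stage, 5601 to 42260.3 CPM at the advanced stage and only 830.0 to 1240.2 CPM at baseline. The part of such transcripts in the other differences between the stages was not tested. Genes of granulocyte-monocyte progenitors gave 0 calls among 10. Mpo, the myeloperoxidase made in promyelocytes, ran from 91.6 to 159 CPM and from 64.6 to 416 CPM, and Elane, neutrophil elastase, from 38.5 to 72.4 and from 31.2 to 213 CPM, with advanced library 3 highest for both.

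Outside the marker lists of other cells, the risen genes included those for a secreted blood protein, a surface receptor and proteases. Which cells in the libraries carried these reads was not tested, and F5 and Adam8 were highest in advanced library 2, as the eosinophil genes were. F5 (chr1:164151835-164220277 in GRCm38), which encodes coagulation factor V, was at 119, 85.03, 95.7 and 97.4 CPM in the early libraries and 228, 313, 234 and 155 CPM in the advanced ones. No advanced library reached down to the early range, and the log2 change was 1.23 (SE 0.18, adjusted p = 0.00696) in edgeR. At baseline F5 was at 155, 148, 123 and 174 CPM, above every early library and overlapping the advanced ones. Clec4e, which encodes the receptor Mincle for mycobacterial glycolipids and damaged cells, was at 59.95, 43.9, 47.9 and 45.6 CPM and then 132, 118, 89.6 and 113 CPM, a log2 change of 1.21 (SE 0.25, adjusted p = 0.0212). It was the 1 member called of 27 Toll-like and C-type lectin receptor genes, whose median was 0.37. Its neighbour Clec4d was also without overlap, at 22.7, 10.4, 13.9 and 13.3 CPM in the early and 41.03, 35.00, 27.3 and 28.3 CPM in the advanced libraries, and just missed the threshold (adjusted p = 0.0510). Clec4e did not pass without early library 2 or 4 or advanced library 1, 2 or 4 (adjusted p up to 0.0827). Its baseline, at 32.1, 60.8, 45.6 and 79.0 CPM, overlapped the early libraries and lay below the advanced ones.

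Both proteases that were called, of 14 tested genes for matrix proteases and their inhibitors, belong to the membrane-bound sheddases. Adam8 (chr7:139978932-139995207) was at 6.55, 7.09, 8.19 and 8.85 CPM and then 27.8, 36.1, 17.2 and 19.6 CPM, a log2 change of 1.70 (SE 0.25, adjusted p = 0.00696). Its chow baseline, at 22.5, 22.1, 22.00 and 14.5 CPM, overlapped the advanced libraries and not the early ones. Adam17, which releases tumour necrosis factor from the cell surface, rose less, from 213 ± 9.54 to 277 ± 22.6 CPM, a log2 change of 0.40 (SE 0.09, adjusted p = 0.0274). Its baseline, at 249, 259, 265 and 251 CPM, also overlapped the advanced libraries and not the early ones. All 14 genes of the list had a positive log2 change, with a median of 0.56. Further rises of more than 2-fold were in genes of other functions. Shtn1, which encodes shootin, a regulator of actin in neurons, was at 29.2, 31.2, 34.00 and 31.4 CPM in the early and 161, 63.6, 48.7 and 72.6 CPM in the advanced libraries, a log2 change of 1.49 (SE 0.29, adjusted p = 0.0179). B4galt6, a lactosylceramide synthase, was at 38.8, 26.5, 30.9 and 32.3 CPM in the early and 90.7, 61.5, 83.1 and 46.5 CPM in the advanced libraries, a log2 change of 1.17 (SE 0.20, adjusted p = 0.0102). Ints2, a subunit of the Integrator complex that processes small nuclear RNAs, was at 3.02, 7.56, 8.82 and 5.75 CPM in the early and 32.4, 24.4, 16.02 and 10.9 CPM in the advanced libraries, a log2 change of 1.76 (SE 0.35, adjusted p = 0.0190). The stages did not overlap for any of these 3. Among them, Shtn1 was the one in which both diet stages were above baseline in every library, baseline lying at 12.6 to 17.3 CPM. The baseline of Ints2, at 13.5, 16.6, 15.98 and 14.3 CPM, lay above every early library and overlapped the advanced ones. That of B4galt6, at 29.7, 33.2, 30.1 and 27.4 CPM, overlapped the early libraries. F5, Adam8 and B4galt6 passed in each of the 8 fits that left out 1 library. Shtn1 and Ints2 did not pass without early library 2 (adjusted p = 0.0632 and 0.0532). Ints2 also failed without advanced library 1 or 2 (adjusted p up to 0.0639). Adam17 was lost without every early library but 3 and every advanced library but 3 (adjusted p up to 0.0827).

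A pair of chaperone genes of the endoplasmic reticulum rose. Calr, which encodes calreticulin, a lectin chaperone that also helps load MHC class I molecules, was at 249, 253, 271 and 211 CPM and then 659, 421, 365 and 412 CPM, a log2 change of 0.94 (SE 0.17, adjusted p = 0.0161) in edgeR. Dnajb11, a cochaperone of the same compartment, was at 61.97, 66.1, 62.97 and 57.99 CPM and then 101, 86.97, 85.4 and 86.4 CPM, a log2 change of 0.55 (SE 0.10, adjusted p = 0.0164). These were 2 of 21 tested genes of endoplasmic reticulum stress, of which 19 had a positive log2 change, with a median of 0.26. Hspa5, the main chaperone induced by that stress, was at 593 ± 24.6 and 681 ± 100.1 CPM and was not called (log2 change 0.21, SE 0.09, adjusted p = 0.234), nor was Xbp1, a transcription factor of the response, at 255 ± 3.15 and 279 ± 49.2 CPM. Single members of other lists rose. Ier3, an NF-kB target, was 1 of 21 tested NF-kB genes to be called, at 3.53, 2.36, 2.52 and 4.43 CPM in the early and 11.3, 9.55, 14.2 and 7.26 CPM in the advanced libraries, a log2 change of 1.74 (SE 0.38, adjusted p = 0.0310). Hdac2, a histone deacetylase, was 1 of 30 chromatin regulators (log2 change 0.67, SE 0.16, adjusted p = 0.0410), and Uqcrb, a subunit of respiratory complex III, was 1 of 55 nuclear-encoded genes of oxidative phosphorylation (log2 change 0.64, SE 0.14, adjusted p = 0.0310). The call of Calr was lost without early library 2 (adjusted p = 0.0513). Ier3 was lost without early library 1 or 2 or advanced library 1, 2 or 3, Uqcrb without early library 2 or 4 or advanced library 1, 2 or 3, and Hdac2 without any 1 library, with adjusted p up to 0.0997, 0.0884 and 0.122. Dnajb11 did not pass without advanced library 1 (adjusted p = 0.0505).

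**Figure D2:**
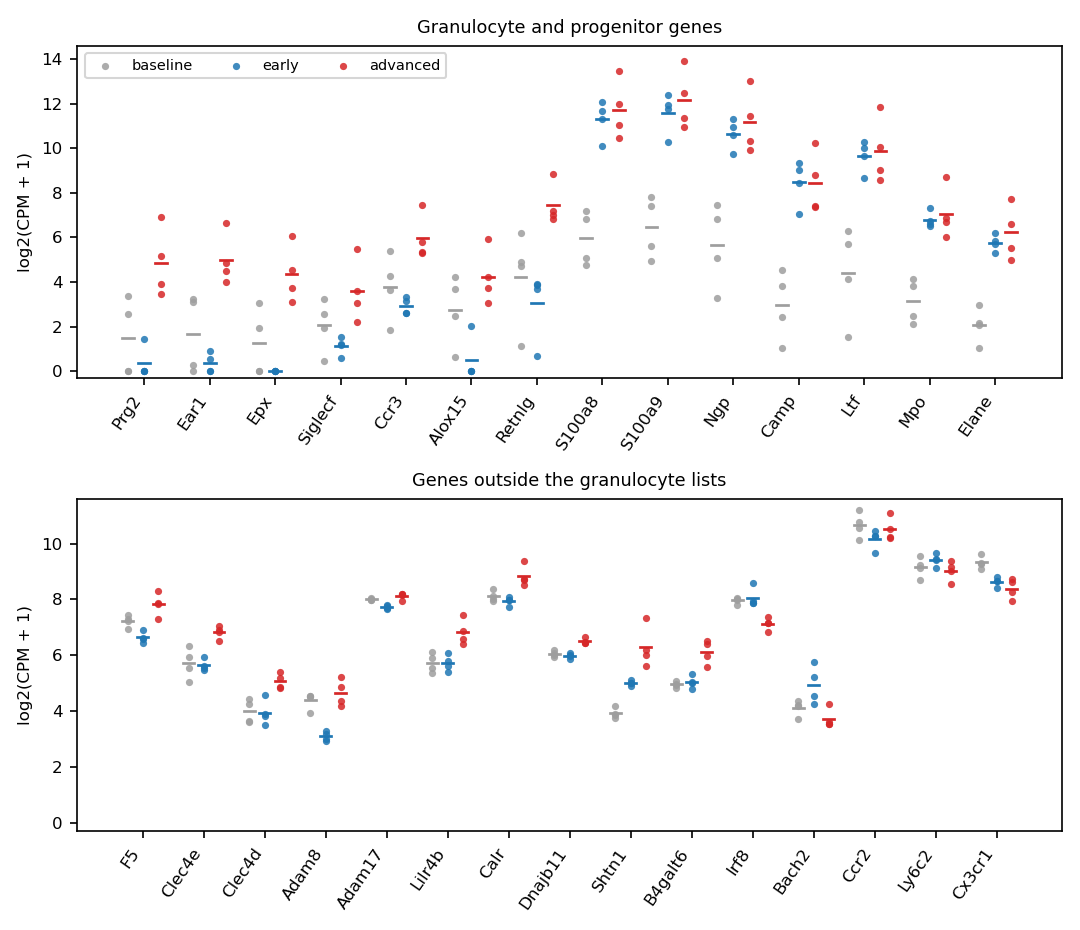
Points are libraries of monocytes at baseline (grey), early (blue) and advanced (red) stages, bars are their means, and the y axis is log2(CPM + 1). The upper panel holds granulocyte and progenitor genes, where eosinophil genes are near 0 at the early stage, and the lower panel other genes, where F5, Clec4e and Adam8 lie higher at the advanced stage and Irf8 lower.

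Irf8, the transcription factor that steers progenitors to monocytes and dendritic cells, was lower at the advanced stage. It was at 231, 379, 246 and 232 CPM in the early libraries and 163, 142, 112 and 142 CPM in the advanced ones, a log2 change of -0.94 (SE 0.16, adjusted p = 0.00999) in edgeR, and passed in each of the 8 fits that left out 1 library. At baseline it was at 262, 261, 222 and 250.2 CPM, above every advanced library. Early library 2, which led for natural killer and plasmacytoid dendritic cell genes, was also highest for Irf8, and without it the log2 change was -0.74 (adjusted p = 0.0228). Bach2, a repressor best known in lymphocytes, fell from 22.2, 53.8, 18.3 and 36.7 to 10.6, 10.6, 11.3 and 18.2 CPM, a log2 change of -1.35 (SE 0.32, adjusted p = 0.0400) that did not pass without early library 2 or 4 or advanced library 1, 2 or 3 (adjusted p up to 0.134). They were the 2 called of 26 myeloid transcription factors.

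Of 10 tested class II antigen presentation genes, 2 fell, and both encode parts of a modulator. H2-Oa and H2-Ob form the H2-O dimer, which restrains peptide loading and is best known from B cells. H2-Ob was at 33.3, 28.8, 8.19 and 21.2 CPM and then 5.29, 5.30, 4.15 and 3.63 CPM, a log2 change of -2.31 (SE 0.49, adjusted p = 0.0262), and H2-Oa at 11.6, 11.8, 4.41 and 5.31 CPM and then 0, 0, 0.593 and 0 CPM, or 67 counts against 1. All 10 of them had a negative log2 change, with a median of -0.58. Those that bind peptide were not called: H2-Aa was at 469 ± 119 and 335 ± 94.2 CPM, H2-Ab1 at 217 ± 72.3 and 135 ± 41.4 CPM, and H2-Eb1 at 209.6, 213, 118 and 142 CPM in the early and 76.1, 113, 62.3 and 101 CPM in the advanced libraries (log2 change -0.96, SE 0.41, adjusted p = 0.227). Among 17 class I genes, Psmb8, an immunoproteasome subunit, fell from 129 ± 14.2 to 85.4 ± 16.2 CPM (log2 change -0.59, adjusted p = 0.0497). It was the 1 member called lower, and Calr, given above, was the 1 called higher. Of the 17, 13 had a negative log2 change, with a median of -0.31. The 19 listed genes summed to 6896 to 8477 CPM in the early libraries and 7579 to 9640 CPM in the advanced ones. H2-Oa and H2-Ob were lost without early library 1 or 2 or any 1 advanced library (adjusted p up to 0.0928 and 0.0877), and Psmb8 without early library 1, 2 or 3 or advanced library 1, 2 or 3 (adjusted p up to 0.129).

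Hspa1a, the inducible cytosolic chaperone of the heat shock response, was at 144, 87.9, 98.9 and 78.8 CPM in the early libraries, 5.29, 40.3, 34.4 and 26.1 CPM in the advanced ones and 8.14, 9.23, 17.4 and 3.69 CPM at baseline. The stages on diet did not overlap, and the log2 change was -1.96 (SE 0.44, adjusted p = 0.0311) in edgeR. It was the 1 member called of 16 heat shock genes, whose median was 0.02, and it was lost without early library 1 or 2 or any 1 advanced library, with an adjusted p of up to 0.0828. Hspa1b, at 188, 99.7, 120.3 and 112 CPM in the early and 5.29, 64.7, 39.2 and 37.04 CPM in the advanced libraries, moved by -1.87 on the log2 scale (adjusted p = 0.0563). These genes are near-identical copies, so reads may have been divided between them in counting, and the promoters show how alike they are. The stretches printed here, at chr17:34972232-34972281 and chr17:34959314-34959363 in GRCm38.p6 (RefSeq, minus strand, printed 5′ to 3′ on the gene's strand), are 50 bases long, with the heat shock factor motif GAANNTTC in capitals. It reads the same on both strands.
Hspa1a: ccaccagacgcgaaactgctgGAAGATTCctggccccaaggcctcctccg
Hspa1b: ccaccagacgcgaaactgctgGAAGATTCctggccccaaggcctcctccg
The motif starts 104 bases before the transcription start in both genes. Over the whole 300-base promoter 296 bases (98.7%) are the same. A listed heat shock gene was counted if any of its promoters held the motif. This was so for 9 of the 14 that matched the RefSeq table. The motif stood in 7.86% of all 32851 promoters of that length, a share of promoters and not of genes, so the figures differ in unit. A match is a description of letters and no site of binding was measured.

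Of 70 tested genes for cytosolic ribosomal proteins, 10 fell, by small amounts, and none rose. Among all 70, 62 had a negative log2 change, and the median was -0.23. The 74 genes of the list, tested or not, summed to 23871 to 27459 CPM in the early libraries and 20606 to 23167 CPM in the advanced ones, with no overlap. Rpl13, a protein of the large subunit, was at 409, 463, 375 and 402 CPM and then 271, 270.4, 266 and 283 CPM, a log2 change of -0.57 (SE 0.09, adjusted p = 0.00696) in edgeR. Rpl27a was at 422, 425, 341 and 370.1 CPM and then 251, 307, 243 and 260.0 CPM, a log2 change of -0.54 (SE 0.09, adjusted p = 0.00999). The largest of the 10 falls was in Rplp1, a protein of the ribosomal stalk, at -0.70 (early 730.0, 792, 457 and 534 CPM, advanced 385, 407, 357 and 378 CPM). Others were Rpl12, Rpl13a, Rpl27, Rpl36, Rps7 and Rps19. At baseline Rplp1 was at 277, 283, 312 and 232 CPM, below both diet stages. Baseline Rpl13, at 323, 337, 326 and 327 CPM, lay above every advanced library and below every early one. Baseline Rpl27a, at 257, 278, 266 and 234 CPM, overlapped the advanced libraries. Rpl13 and Rpl27a passed in each of the 8 fits that left out 1 library, while the number called fell to 3 without early library 2, 2 without advanced library 1, 3 without advanced library 2 and 2 without advanced library 3. Reads of ribosomal protein genes can be shared with their many processed pseudogenes, so these levels are uncertain.

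Transcripts of ribosomal protein genes typically begin with a pyrimidine tract through which their translation is regulated. To show the letters around the annotated start, the bases from 30 before to 15 after the RefSeq start are printed for 4 of the fallen genes, chosen after their values were seen, with CTTTC and CTTTT in capitals. These letters were searched on the gene's strand only and may overlap each other. Base 31 of each stretch is the start that RefSeq gives, and the capitals lie after it in Rpl12, Rpl13a and Rpl27a and before it, outside the annotated transcript, in Rpl13. A match to these letters is a description and does not show a tract at the true start. The windows are chr2:32961682-32961726 (plus strand), chr8:123102320-123102364 (plus), chr7:45128731-45128775 (minus) and chr7:109519165-109519209 (plus) in GRCm38.p6.
Rpl12: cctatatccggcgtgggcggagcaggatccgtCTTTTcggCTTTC
Rpl13: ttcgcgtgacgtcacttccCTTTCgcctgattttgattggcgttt
Rpl13a: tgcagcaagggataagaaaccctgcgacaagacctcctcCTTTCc
Rpl27a: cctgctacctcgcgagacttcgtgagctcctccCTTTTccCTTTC
A gene was counted if any of its windows held either of these letter groups. This was so for 5 of the 7 fallen ribosomal protein genes that matched the RefSeq table. It was so for 16 of 44 other tested ones that matched (36.4%). Of all 32851 promoter windows of that length 10.9% held either, a share of windows and not of genes, so the figures differ in unit.

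The gene with the smallest p of the comparison, named after its value was seen, was Rpph1, the RNA component of ribonuclease P. It was at 5182, 3395, 2231 and 2602 CPM and then 1009, 978, 805 and 1029.9 CPM, against 361, 453, 456 and 531 CPM at baseline, a log2 change of -1.79 (SE 0.21, adjusted p = 0.00368) in edgeR. It passed in each of the 8 fits that left out 1 library. This RNA is short and not polyadenylated, and how far such RNA enters a library was not tested.

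Genes that mark the monocyte subsets were not called. Of 17 classical monocyte genes, 0 passed, with 13 positive, 4 negative and a median log2 change of 0.38. Of 20 nonclassical genes 0 passed, with 8 positive, 12 negative and a median of -0.20. Ly6c2, among the 4 negative classical genes, was at 809, 688, 686 and 561 CPM in the early libraries and 371, 664, 573 and 518 CPM in the advanced ones (log2 change -0.36, SE 0.17, adjusted p = 0.281). Cx3cr1 was at 406, 339.6, 448 and 405 CPM in the early and 245, 389, 306 and 429 CPM in the advanced libraries (log2 change -0.21, SE 0.17, adjusted p = 0.529). Nr4a1 was at 542, 417, 446 and 456 CPM in the early and 163, 371, 344 and 479 CPM in the advanced libraries, with advanced library 1 lowest and a log2 change of -0.44 (SE 0.23, adjusted p = 0.317). Advanced library 1 was also the lowest for Ace, Spn and Zfp36 and the highest for Vcan, a proteoglycan of classical monocytes. Vcan lay without overlap at 184, 54.8, 161 and 136 CPM in the early and 1616, 204, 361 and 320.3 CPM in the advanced libraries and missed the threshold (log2 change 2.26, SE 0.59, adjusted p = 0.0591).

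Of the 28 pathway lists tested, 16 had no called member, those of the subsets included. Cholesterol handling was among them. None of the 16 genes of cholesterol synthesis and uptake passed. Abca1, the cholesterol exporter induced by the sterol receptor LXR, was at 386, 389, 348 and 353 CPM in the early and 199.9, 467, 299.6 and 421 CPM in the advanced libraries with a log2 change of -0.08 (SE 0.18, adjusted p = 0.849), and 0 of 12 LXR targets passed. Interferon-stimulated genes gave 0 calls among 36, with 27 negative and a median of -0.16. Irf7, the interferon-induced amplifier of that response, lay without overlap at 328, 301, 257 and 244 CPM in the early and 132, 237, 152 and 184 CPM in the advanced libraries (log2 change -0.68, SE 0.19, adjusted p = 0.0702). Genes of DNA replication and mitosis gave 0 calls among 39, with 33 positive and a median of 0.52. Mki67, a marker of cycling cells, was at 274, 245, 169 and 320.1 CPM in the early and 271, 275, 920.2 and 113 CPM in the advanced libraries, and advanced library 3, the one highest in neutrophil and progenitor genes, was the highest for it too. A gene that misses the threshold is not shown to be equal between the stages, and the SE of the log2 change was 0.18 for Abca1 and 0.62 for Mki67.

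No member passed among 27 genes of lipid uptake, storage and fatty acid oxidation, 26 of glycolysis and hypoxia, 22 replication-dependent histones, 17 Fc and phagocytic receptors, 26 NRF2 targets, 34 lysosomal genes, 11 clock genes, 15 glucocorticoid-induced genes and 12 p53 and senescence genes. Their medians lay between -0.07 and 0.26. Of 20 immediate-early genes none passed, 17 were negative and the median was -0.33, and Fos, a subunit of the AP-1 transcription factor, was at 1134, 992, 1215 and 789 CPM in the early and 303, 966, 761 and 856 CPM in the advanced libraries. Among markers of other cells, 0 of 3 passed for erythroid cells, 0 of 5 for platelets and megakaryocytes, 0 of 1 for basophils and mast cells and 0 of 11 for splenic and tissue macrophages. Of those 11, 10 had a negative log2 change and 1 a positive one, with a median of -0.72. Ccr7 was the 1 of 7 conventional dendritic cell markers to pass. Cd209a, a lectin of monocyte-derived dendritic cells, lay at 47.9, 42.99, 37.1 and 46.5 CPM in the early and 4.63, 30.8, 14.2 and 15.98 CPM in the advanced libraries without overlap and missed the threshold (log2 change -1.48, SE 0.38, adjusted p = 0.0563).

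**Figure D3:**
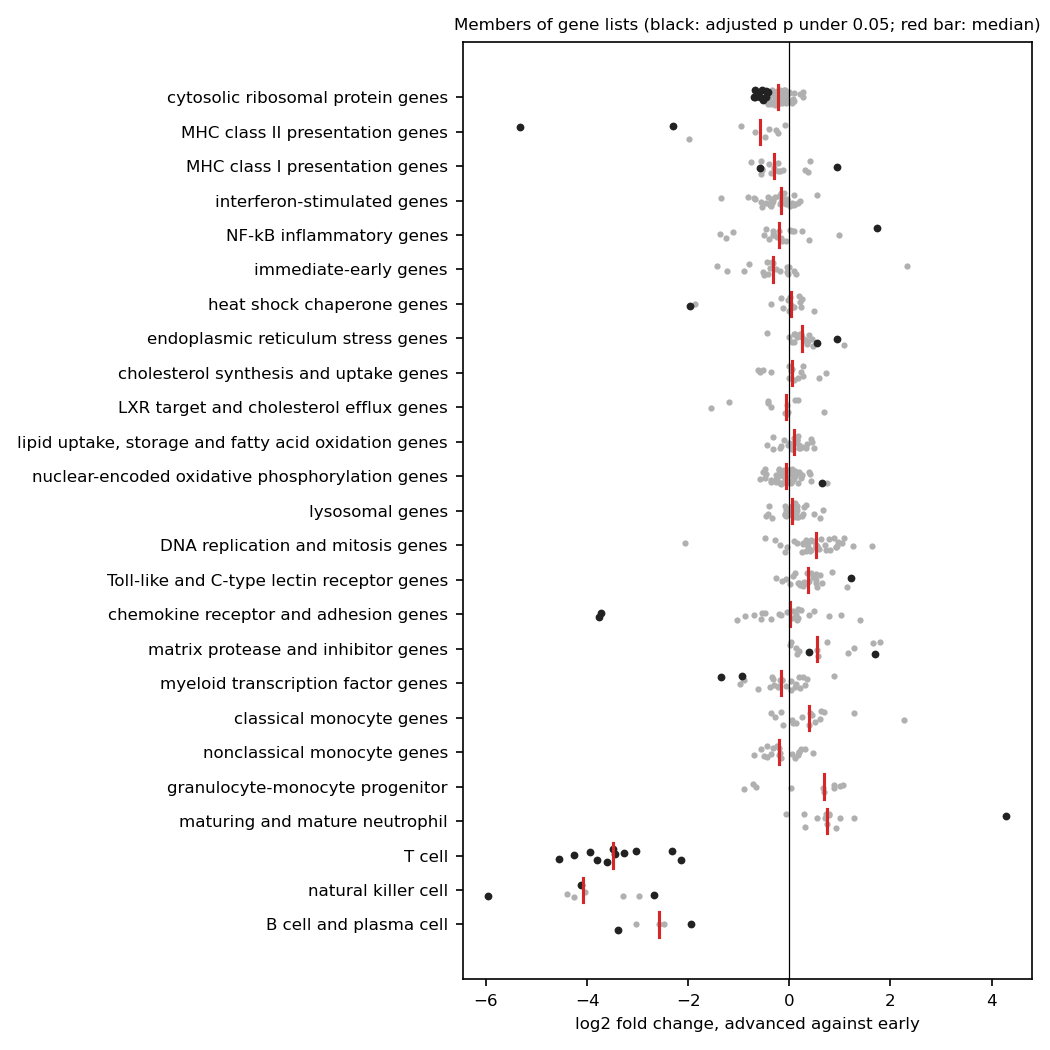
Each point is a tested gene of a list, placed by its log2 fold change of advanced against early monocytes (x axis), black where the adjusted p was under 0.05, and red bars are list medians. The T cell, natural killer and B cell lists lie far left of 0, and the ribosomal protein list shifts slightly to the left with 10 called genes.

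To see whether the change between the stages was shared by another population of the same series, it was compared with that of peritoneal macrophages, also 4 libraries a stage. In an interaction fit of 24 libraries, 129 of 10343 genes (1.25%) differed in their advanced-minus-early change, 100 with the more positive change in monocytes and 29 with the more negative one. Of the 194 genes called in monocytes, 21 were among them. Adam8 rose in monocytes and was at 49.1, 90.7, 82.3 and 82.1 CPM in early and 62.8, 57.01, 51.7 and 76.9 CPM in advanced peritoneal libraries, and the changes differed by 1.93 (SE 0.40, adjusted p = 0.0240) on the log2 scale. Ier3 rose in monocytes and fell in peritoneal macrophages, from 28.2, 94.99, 152 and 71.5 to 19.1, 18.6, 20.1 and 22.6 CPM, a difference of 3.81 (SE 0.63, adjusted p = 0.00848). Shtn1 and Ints2 differed by 1.66 (SE 0.35, adjusted p = 0.0240) and 1.75 (SE 0.39, adjusted p = 0.0283). S1pr1 fell in monocytes and was at 125, 74.3, 177 and 174 CPM in early and 149.7, 184, 198 and 194 CPM in advanced peritoneal libraries (log2 change 0.45, adjusted p = 0.395), a difference of -4.18 (SE 0.68, adjusted p = 0.00848). Cd3g differed by -9.85 (SE 2.07, adjusted p = 0.0250). It had no count in any early peritoneal library and was at 1.09, 1.80, 1.09 and 0.452 CPM in the advanced ones. That peritoneal change was not called (log2 change 5.61, adjusted p = 0.130), so much of the difference rests on levels near 0. Ablim1, a LIM protein that binds actin, and Gimap6, a GTPase of lymphocytes, also differed, by -3.39 and -3.16. Of the 5 largest positive differences, 4 went with a fall in the peritoneum (Ptgs2, Ccr2, Ltb4r1 and Mefv). The other was that of Clmn, an actin-binding membrane protein, which had 1 count over the early and 28 over the advanced monocyte libraries and was at 32.1 ± 9.12 and 21.2 ± 3.67 CPM in the peritoneum, a difference of 5.63 (SE 1.13, adjusted p = 0.0206). It did not pass without early monocyte library 2, without advanced monocyte library 1, without early peritoneal libraries 1 and 2, with limma-voom or with thinned counts (adjusted p up to 0.0994). Ccr2 was at 897, 1311, 47.99 and 24.4 CPM in early and 6.01, 6.60, 3.81 and 3.17 CPM in advanced peritoneal libraries, a difference of 7.16 (SE 1.11, adjusted p = 0.00582), and early peritoneal libraries 1 and 2 stood far above 3 and 4. The same held for Ltb4r1, at 10.2, 49.6, 0.762 and 0.530 CPM in early peritoneal libraries 1 to 4, and for Mefv, at 8.74, 14.5, 0 and 0.530 CPM. In advanced peritoneal libraries these 2 genes reached at most 0.546 and 0.452 CPM. Ptgs2, Ccr2, Ltb4r1 and Mefv were not called in monocytes. Without early peritoneal libraries 1 and 2, an alternative chosen after seeing the data, 22 genes differed. Leaving out single libraries moved the count between 18, without advanced peritoneal library 3, and 340, without early peritoneal library 4.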

How the data were processed

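Cells were sorted by flow cytometry into lysis buffer, and low-input RNA libraries (Ovation SoLo) gave paired-end reads (NextSeq500), per the labels' protocols. The authors deposited whole-number counts of reads per gene, 1 table per library with 24421 genes. The submitters' processing notes name STAR, featureCounts and mm10, and versions, settings and strand use were not given in the sources used here, so overlapping and near-identical genes are uncertain. Groups come from the titles.

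The comparison was fitted with edgeR 4.0.16 (R 4.3.3) on the 12 monocyte libraries: TMM normalisation, filterByExpr, quasi-likelihood test, two-sided, Benjamini-Hochberg adjusted p under 0.05. The interaction used 24 libraries. Totals ran from 0.943 to 14.8 M counts, and the biological coefficient of variation of 19.1% sets the precision of a fold change. Counts carry no molecular identifiers, so intervals, and the 3 counts set in place of 0, reflect counting error alone. CPM use the library total, Rn45s included. Scripts were tested on simulated data. Alternatives used limma 3.58.1 and DESeq2 1.42.0, other normalisation and filters, thinned counts and left-out libraries.

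The members and the gene lists were chosen with earlier results of these data known. Genes named are the 12 largest rises and 12 largest falls that passed, had no overlap between stages and reached 20 CPM, up to 4 called members of each list or its 2 most abundant, marker checks, and the 5 largest interaction terms each way, some dropped for length. Some genes are not reported here. Genes outside this rule, such as Rpph1, Clec4d, Epx, Vcan, Irf7, Cd209a, Hspa1b, Hspa5, Xbp1 and the peptide-binding class II genes, were chosen after their values were seen. T cell receptor constant genes and mitochondrially encoded genes were not analysed here.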

Additional observations from a re-analysis of the deposited data

Results flagged for a closer look

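In groups of 4 libraries, 180 groups of values were examined for a library set apart from the other 3, and 23 had one. The limit used is one that chance passes in about 1 in 20 groups of independent, normally distributed values, while these groups share libraries. Early library 2 was set apart above the others for Gzma (452 CPM), Ccl5 (335 CPM), Klri2 (155 CPM), Il2rb (192 CPM), Klrk1 (195 CPM), Siglech (176 CPM) and Irf8 (379 CPM). Advanced library 2 was set apart above the others for Ear1 (98.6 CPM), Retnlg (456 CPM) and Ccr3 (177 CPM), and also for Gzma (6.36 CPM), Lef1 (4.24 CPM) and Lck (6.36 CPM). Advanced library 1 was high for Dnajb11 (101 CPM) and low for Zfp36 (285 CPM) and Apoe (2.65 CPM). Advanced library 3 was high for Mpo (416 CPM), low for Adam17 (243 CPM), and the one with a count of H2-Oa (0.593 CPM). Advanced library 4 was high for Bach2 (18.2 CPM). Early library 4 was the one early library with counts of Prg2 (1.77 CPM) and Alox15 (3.10 CPM), and early library 1 was high for Apoe (42.8 CPM).

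The advanced-minus-early change differed between monocytes and peritoneal macrophages, by a test of the interaction, for 15 of the genes reported. Those with the largest terms each way were named because they passed this test, so the choice of genes partly set that count. Over all 10343 tested genes, 129 (1.25%) differed. The difference on the log2 scale was positive for Ptgs2, the inducible prostaglandin synthase (7.21), Ccr2 (7.16), Ltb4r1, a leukotriene receptor (6.89), Mefv, which encodes pyrin (5.86), Clmn (5.63), Ier3 (3.81), the integrin chain Itgal (3.34), Adam8 (1.93), Ints2 (1.75) and Shtn1 (1.66). It was negative for Cd3g (-9.85, with peritoneal levels near 0), S1pr1 (-4.18), the zinc transporter Slc30a4 (-3.44), Ablim1 (-3.39) and Gimap6 (-3.16). For Ccr2, Ltb4r1, Mefv and Itgal, early peritoneal libraries 1 and 2 stood far above 3 and 4, with Itgal at 56.8, 121, 6.09 and 7.95 CPM.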

How the results depend on the processing

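The number of genes that differed between advanced and early monocytes, 194, was 373 without a filter on low counts, 435 with DESeq2, 114 with a replicate block and 4 without advanced libraries 2 and 3, and ranged from 34 to 321 when 1 library was left out. It stayed within 1.5 times with DESeq2's size factors, limma-voom, counts thinned to equal depth, Rn45s removed or the 8 libraries alone. These totals hide shifts among single genes: with limma-voom, 24 of the 55 called genes named here missed the threshold, among them all 3 natural killer markers, 5 of the 11 T cell markers, Prg2, Ear1, Ccr3 and Retnlg. With a replicate block 15 of the 55 missed it. In all 8 fits that left out 1 library, 15 of the 55 kept the call. None of the 55 changed direction in an alternative that tested it, and 42 were tested with thinned counts and 50 with the 8 libraries alone. The number that differed from peritoneal macrophages, 129, was 377 with DESeq2, 61 with limma-voom, 71 with a replicate block and 22 without early peritoneal libraries 1 and 2, and ranged from 18 to 340 when 1 library was left out. The cause was not tested for these shifts. The difference in depth between the stages ranged from -0.741 to -0.463 M counts when 1 library was left out, and its exact p reached 0.0286 without early library 3. Whether the replicate numbers pair the libraries was not known. Same-numbered deviations from the stage means had correlations between -0.0660 and 0.0731, which cannot settle it, so the block is no test of pairing. Depth limits genes of few counts, such as Ear1 with 3 early counts and H2-Oa with 1 advanced count.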
